A study of Brassica rapa subsp. pekinensis with 6 samples.

Results

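A set of 210 of the 35421 measured genes was well expressed in wild-type flower buds of Chinese cabbage and silent in buds of the male sterile mutant msm. The members were chosen by their RPKM in these libraries, that is, by the reads of a gene scaled to its coding length and to the reads of the library. A member had at least 1 RPKM in each wild-type library, a mean of at least 10 RPKM over them and less than 0.1 RPKM in each msm library. A gene with no entry in a library was set to 0. The difference between msm and wild type was therefore fixed by the choice of the genes, and it is described here without a test. Silent means few or no reads, not a proven absence of transcript.

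The study sequenced RNA from buds taken in full bloom. Chinese cabbage is a leafy form of Brassica rapa (subsp. pekinensis). It held 3 wild-type libraries of the line FT, numbered 1, 2 and 4, and 3 libraries of msm, numbered 1, 2 and 3. The labels give genotype and stage only. They name neither the mutated gene nor a treatment nor the age of the plants, and they do not say whether libraries came from separate plants. The 3 wild-type libraries averaged 25156752 ± 216956 uniquely assigned reads (SD), and the 3 msm libraries 25534727 ± 600111 (SD).

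A flower bud holds sepals, petals, carpels and anthers, and the anthers hold the tapetum, a nurse tissue that feeds the developing pollen and supplies material for the pollen wall and coat. Large numbers of plant genes are known to be transcribed mainly in the tapetum or in pollen, and male sterile plants often lose such transcripts when these cells fail. Whole buds were sequenced here, so fewer cells of a type and less RNA per cell cannot be told apart. Of the 210 identifiers, 0 matched a RefSeq gene table of Brassica rapa (1 of all 35421 did), so the members are given by identifier, what they encode was not identified, and the tissue could not be checked against its markers. Genome positions and sequences were not used here.

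The most strongly expressed member was Bra025356 (coding length 954 bases), with 297.7, 286.5 and 294.9 RPKM in wild-type libraries 1, 2 and 4. In msm it had 1, 2 and 0 reads in libraries 1, 2 and 3, against 7214, 6855 and 7030 reads in wild type. The level was thus 8296-fold lower in msm, with a 95% interval from 2839 to 40228 that covers the counting error of the 3 msm reads only. It ranked at place 409 of all genes by mean wild-type RPKM. Among the 408 well-expressed genes above it, 0 were silent by the same rule, although 64 of them had an msm mean below 10% of the wild-type mean. The lowest of these 408 genes in msm still reached 0.142 RPKM in its highest msm library.

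Short coding regions with no msm read at all made up much of the top of the list. Bra021457 has a coding length of 207 bases and stood at 232.4, 264.1 and 274.5 RPKM in wild type. No msm library held a read of it, against 1222 to 1420 reads in the wild-type libraries. With 3 counts in each msm library as the floor, it was at least 526-fold lower. Bra030122 (516 bases) had 241.4, 243.7 and 262.3 RPKM in wild type and no msm read, at least 1271-fold lower, which is the highest such bound among the members. The size of such a bound follows the number of wild-type reads, so it is lower for the shorter Bra021457 although its RPKM is the higher. Bra015022 (273 bases) had 206.8, 239.4 and 236.7 RPKM and no msm read, at least 614-fold lower. Bra024148 (405 bases) had 207.04, 207.7 and 224.9 RPKM and no msm read, at least 854-fold lower. Bra040342 (330 bases) had 199.2, 197.6 and 207.5 RPKM and no msm read, at least 657-fold lower. These 3 genes had close levels in the wild-type libraries, and their bounds differ mainly because longer genes gather more reads at the same RPKM. Bra019903 (507 bases) had 153.5, 154.3 and 164.9 RPKM in wild type and likewise no msm read.

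Longer genes near the top of the list kept between 1 and 6 reads over the msm libraries. Bra025354 (1491 bases) had 234.7, 246.7 and 240.1 RPKM in wild type, and 2 reads in each of the 3 msm libraries against 8889 to 9223 in wild type. It was 5320-fold lower (95% interval 2444 to 14496). Bra028699 (1092 bases) had 214.1, 236.2 and 233.9 RPKM in wild type and 1 read over all msm libraries, in library 3. That single read gives a ratio of 22167, with an interval from 3979 to 875555, so the size of this ratio is poorly fixed. Bra018805 (1230 bases) had 202.5, 219.4 and 224.2 RPKM in wild type, and 4 msm reads in 2 libraries left it 5895-fold lower (2302 to 21637). Bra003491 (1773 bases) had 225.1, 203.0 and 202.7 RPKM in wild type, with 10137, 9026 and 8982 reads, and 5 msm reads in 2 libraries. It had the most wild-type reads of all members. Bra039388 (1665 bases) varied most among these 12 genes, with 197.2, 163.0 and 152.7 RPKM in wild-type libraries 1, 2 and 4, a coefficient of variation of 13.6%. The lowest coefficient among the 12 was 1.98%, in Bra025356. Together the 12 most expressed members held 29.4% of the summed RPKM of all 210, and 6 of them had no msm read.

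**Figure D1:**
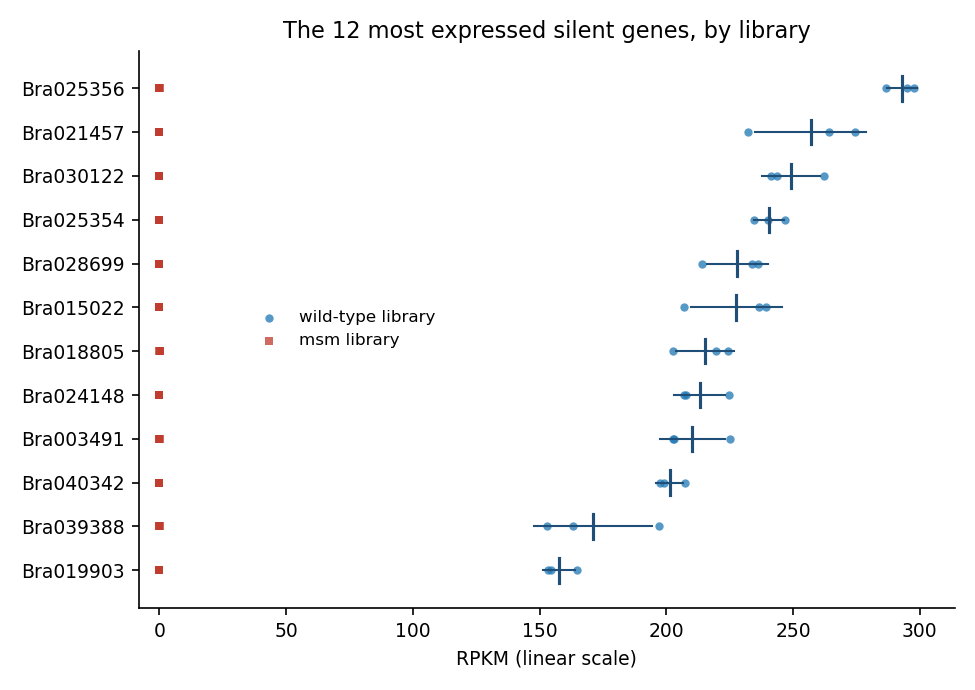
RPKM (x axis, linear) of the 12 members with the highest wild-type mean (y axis), with a circle per wild-type library, a square per msm library, a tick at the wild-type mean and a line of 1 SD to each side. The wild-type circles lie between 152.7 and 297.7 RPKM and all msm squares lie at or next to 0.

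Most members were expressed at far lower levels than these. The median of the wild-type means was 22.2 RPKM, with quartiles of 13.96 and 44.4, and 96 members lay below 20 RPKM. Means of at least 50 RPKM were found in 49 members, of at least 100 RPKM in 21 and of at least 200 RPKM in 10. The distribution was thus uneven, and the 31 most expressed members held 50% of the summed RPKM. Together the members took 0.915%, 0.917% and 0.921% of all reads in wild-type libraries 1, 2 and 4. In msm libraries 1, 2 and 3 they took 0.000346%, 0.000413% and 0.000472%.

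All 210 members passed the default expression filter of edgeR and were called lower in msm. Of all 29104 genes tested, 12.5% were called lower and 4.64% higher, where a call needed a 2-fold change and a Benjamini-Hochberg adjusted p under 0.05 (edgeR, quasi-likelihood). The full count follows from the choice of the members and nothing is read from it. The median fitted log2 fold change of the members was -11.26, beside 0.005 over all genes tested, but fitted values have no firm limit where msm has no read. With the 128 genes unread in msm placed at their bound, the median member was at least 353-fold lower. On that scale 169 members were at least 100-fold lower and 56 at least 1000-fold. The median bound of the unread members was 157-fold. A bound follows the wild-type reads and the floor, so a bound below a ratio does not mean a smaller loss. The lowest value, 33.8-fold, is a bound for a gene without msm reads, and among members with msm reads the lowest ratio was 220-fold.

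Silent genes occurred at all levels of wild-type expression up to that of Bra025356. In all, 14932 genes met the wild-type part of the rule, and the members are 1.41% of them. The share was 1.76% at 10 to 20 RPKM (96 of 5448 genes), 1.18% at 20 to 50 RPKM (65 of 5518) and 1.31% at 50 to 100 RPKM (28 of 2135). It was 1.04% at 100 to 200 RPKM (11 of 1053) and 1.29% at 200 RPKM or more (10 of 778). A further 491 genes were not silent but had an msm mean below 10% of their wild-type mean. The limit of 0.1 RPKM and not the fold sets them apart from the members, and some of them had larger ratios of wild type to msm than many members. Their share rose from 2.07% in the lowest of these classes to 12.9% in the highest. A fixed limit of 0.1 RPKM asks for a far larger fold of an abundant gene than of a weak one, so the classes do not ask for the same loss, and the difference between the shares was not tested.

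**Figure D2:**
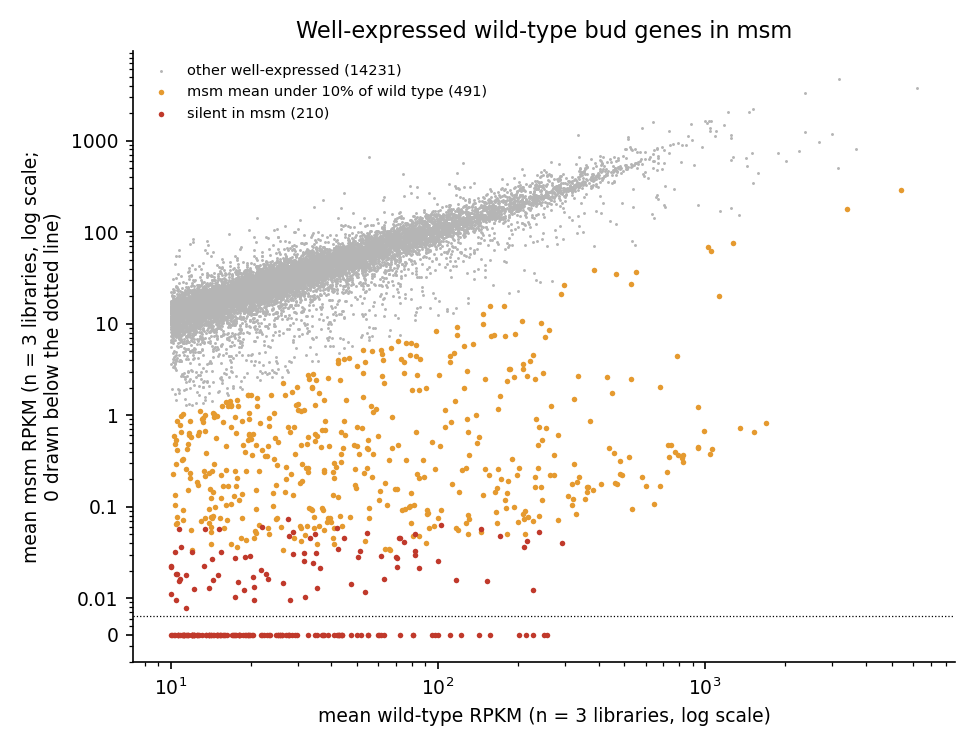
Mean msm RPKM (y axis, log scale, with 0 drawn below the dotted line) against mean wild-type RPKM (x axis, log scale) for each of the 14932 well-expressed genes, 3 libraries per mean. The 210 silent genes form the lowest layer, 128 of them at 0, and none lies above 293 RPKM in wild type.

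**Figure D3:**
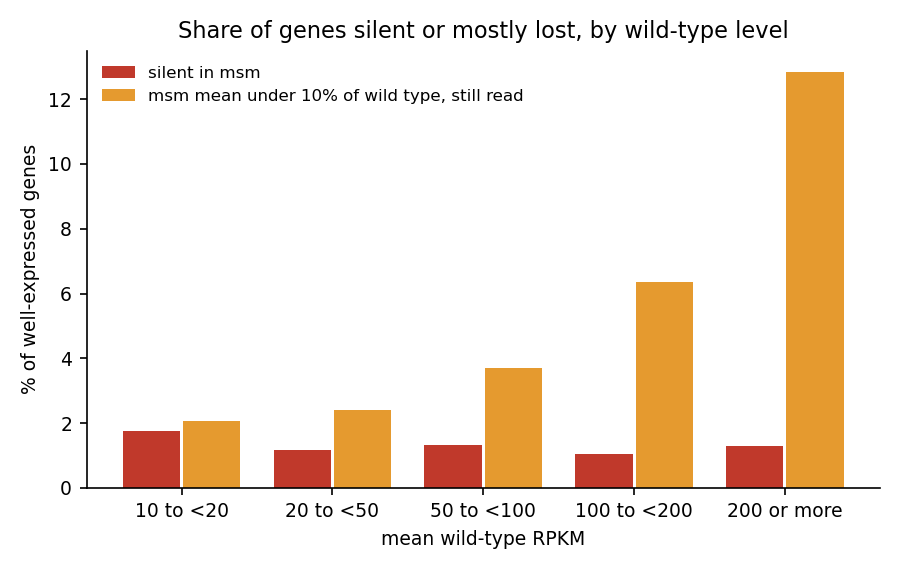
Percentage of well-expressed genes (y axis, from 0) that were silent in msm, or had an msm mean under 10% of wild type without being silent, in 5 classes of mean wild-type RPKM (x axis). The silent share stays between 1.04% and 1.76%, whereas the other share runs from 2.07% to 12.9%.

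Genes on either side of the limits had nearly the same values. The members with the lowest wild-type means were Bra014660 at 10.01 ± 1.16 RPKM, Bra032792 at 10.01 ± 1.58, Bra007857 at 10.04 ± 0.101 and Bra006916 at 10.05 ± 0.499 (SD, n = 3 each). Just below the limit of 10 RPKM stood Bra031589 at 9.82 ± 1.09 RPKM, Bra016386 at 9.72 ± 0.737, Bra025036 at 9.49 ± 0.760 and Bra013932 at 9.48 ± 1.35 (SD, n = 3 each). For several of these genes the SD is larger than the distance to the limit. Below it, 343 further genes were silent in msm with at least 1 RPKM in each wild-type library.

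At the msm limit, the members with the highest value in any msm library were Bra016273 and Bra019627, both at 0.0984 RPKM, Bra033571 at 0.0975 RPKM and Bra032461 at 0.0973 RPKM. Bra016273 and Bra019627 share a coding length of 813 bases and had 2 reads, both in msm library 3. Wild-type means were 82.3 ± 4.11 RPKM for Bra016273 and 51.2 ± 3.96 RPKM for Bra019627 (SD, n = 3 each). The nearest genes outside were Bra028304 at 0.1001 RPKM, Bra010120 at 0.1002, Bra013147 at 0.101 and Bra039133 at 0.102. Of these, Bra028304, Bra010120 and Bra039133 had a single msm read and were left out because their coding regions are short. Bra028304 (393 bases) had 69.6, 56.7 and 72.2 RPKM in wild type and that 1 msm read.

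The msm limit was in effect a limit on reads, and it depended on length. In 27 members, a single read would have reached 0.1 RPKM in every msm library, so they could have none. In only 74 members did 3 reads lie below 0.1 RPKM in every msm library. Where no read was found, up to 3 are compatible with the count, which over the 128 unread members is between 0.0405 RPKM for the longest (2829 bases) and 0.694 RPKM for the shortest in the deepest msm library. For the 136 members outside those 74, a level under 0.1 RPKM could therefore not be shown in every msm library by itself. Of the 74, only 23 had no msm read. The others had reads in msm, so the limit of 3 reads does not hold for them in every msm library. For unread members, a limit from the summed reads of the 3 msm libraries would be lower, and it was not computed. Conversely, 63 well-expressed genes had at most 3 reads over all msm libraries without being members, with a median coding length of 405 bases.

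Few reads of the members were found in msm, and they were spread over many genes. Reads of members numbered 88 in msm library 1, 108 in library 2 and 118 in library 3, or 0.381, 0.468 and 0.511 for each 1000 reads in the mean wild-type library. In the 491 genes under 10% of wild type, the same libraries held 18.0, 18.6 and 18.1 reads for each 1000. No read in any msm library was found for 128 members. Reads were found in 1 msm library for 46 members, in 2 for 24 and in all 3 for 12. Between 1 and 3 reads in all were left in 51 members, and 4 or more in 31.

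The 6 members with the most msm reads held 30.3% of the 314 reads, and all 6 had reads in every msm library. Bra007570, the longest member at 8451 bases, had 6, 15 and 3 reads in msm libraries 1, 2 and 3, against 2665, 2380 and 1933 in wild-type libraries 1, 2 and 4. This is 343-fold lower (95% interval 230 to 535). Bra002249 (4122 bases) had 10, 7 and 2 msm reads, and its wild-type level was 23.3, 21.8 and 20.7 RPKM. In both genes msm library 3 held the fewest reads, although over all members it held the most. Bra027968 (4560 bases) had 6, 4 and 8 msm reads and 55.4, 57.7 and 50.4 RPKM in wild type. Bra033571 (2871 bases) had 2, 2 and 7 msm reads and 82.3, 88.0 and 76.9 RPKM in wild type. Here msm library 3 held the most reads, so no single msm library was the source of the remaining reads in all of these genes. Bra023740 (3201 bases) had 6, 4 and 4 msm reads and was 220-fold lower (131 to 402), the smallest ratio among members with msm reads. Bra006785 (2328 bases) and Bra032461 (1617 bases) tied at 9 msm reads, and Bra006785 is counted among the 6. The 12 members read in all 3 msm libraries had coding lengths from 1443 to 8451 bases, so none was short.

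Members with more wild-type reads more often kept an msm read. Of the 70 members with the fewest wild-type reads, 9 had any msm read, against 28 of the middle 70 and 45 of the 70 with the most. Per library and per 1000 wild-type reads, the reads left were 0.299, 0.617 and 0.427 in these 3 classes. The number of genes with a read thus rose with wild-type reads, whereas the ratio of reads did not run in 1 direction. The msm limit allows short members fewer reads, so the choice of members shaped these counts. No msm read was found in 92.0% of members below 500 bases and in 16.7% of those from 2000 bases on. The classes were compared as a description only.

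**Figure D4:**
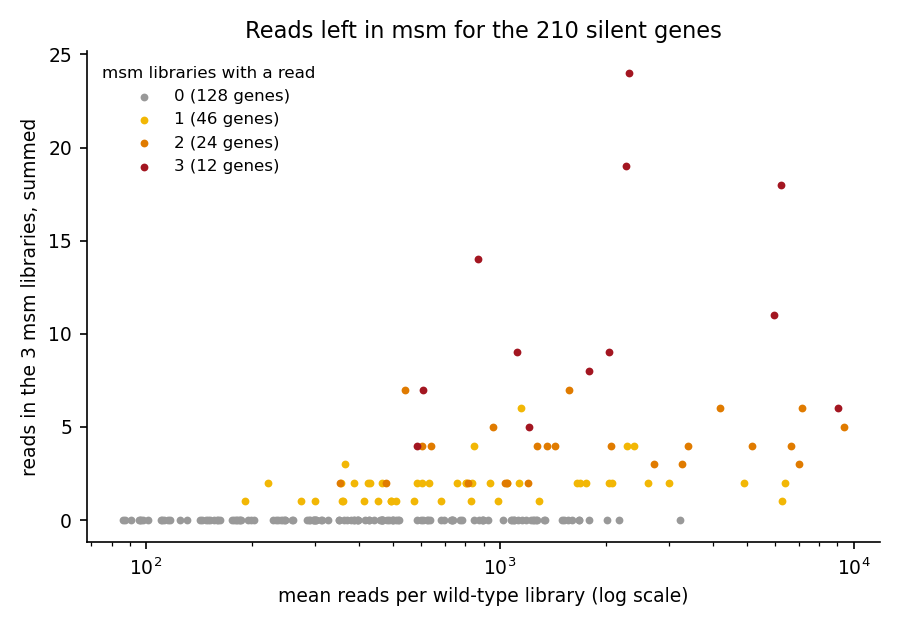
Reads summed over the 3 msm libraries (y axis) against mean reads per wild-type library (x axis, log scale) for the 210 members, coloured by the number of msm libraries that held a read. The 128 members without an msm read lie along 0, and the highest point is Bra007570 with 24 reads.

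The members had shorter coding regions than other well-expressed genes. Their coding lengths ran from 165 bases in Bra017095 to 8451 bases in Bra007570, with a median of 897 bases and quartiles of 508 and 1498. The 491 genes under 10% of wild type had a median of 942 bases, and the 14231 remaining well-expressed genes a median of 1092 bases. Below 500 bases lay 23.8% of the members, 22.4% of the 491 and 13.5% of the remaining genes. Among all well-expressed genes, 2.41% of those below 500 bases were silent, 1.46% at 500 to 1000 bases, 1.14% at 1000 to 2000 bases and 1.08% from 2000 bases on. The msm limit also depends on length, as described above, and length enters RPKM itself. Their part in the difference was not tested. Bra017095, the shortest member, had 23.1, 23.9 and 22.8 RPKM in wild type, from 97, 99 and 94 reads, and none in msm, at least 38-fold lower.

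Reads covered the coding regions of most members nearly in full in wild type. Coverage was at least 95% in each wild-type library for 187 members, and the median over members of the mean coverage was 99.4%, beside 99.5% in the 14231 remaining genes. A mean coverage below 70% was found in 10 members, 5 of which had no msm read. The lowest was Bra032538 (1488 bases), named after its values were seen, with 13.0%, 13.0% and 22.4% covered in wild-type libraries 1, 2 and 4. It had 735 reads per wild-type library, which were thus gathered on a small part of the gene. Bra018837 (444 bases) was covered over 35.8%, 35.6% and 35.4%, and Bra005516 (1593 bases) over 35.4%, 35.5% and 43.1%. Coverage below 50% was found in these 3 members, or 1.43%, beside 0.260% of the remaining genes. For such genes the RPKM, which is scaled to the full coding length, does not describe the part that was read.

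Members varied somewhat more among wild-type libraries than other genes. The median coefficient of variation over the 3 libraries was 6.67% in members, 5.13% in the 491 genes under 10% of wild type and 4.92% in the remaining well-expressed genes. Below 500 bases the medians were 8.95% in members and 6.25% in the remaining genes, and from 2000 bases on 5.05% and 4.49%. Counting error alone would give the median member 4.14%, a figure that was not computed for the other sets. The sets were not matched by wild-type level or reads. Among members, the median coefficient by level ran from 5.02% at 200 RPKM or more to 7.87% at 10 to 20 RPKM. Whether members vary more than genes of like level was not tested. The highest coefficient was 23.4% in Bra001015 (381 bases), with 8.99, 11.3 and 14.4 RPKM in wild-type libraries 1, 2 and 4. It was 20.3% in Bra022950 (216 bases), with 15.7, 22.3 and 16.3 RPKM, and 19.9% in Bra036348 (357 bases), with 9.48, 9.38 and 13.1 RPKM. These 3 genes are short and had about 100 reads per library, namely 111, 98.3 and 95.7 on average, and Bra001015 and Bra036348 were highest in library 4, Bra022950 in library 2. The lowest coefficients were 0.415% in Bra037795 (1458 bases) at 22.8 RPKM, 0.924% in Bra025008 (864 bases) at 34.9 RPKM and 0.938% in Bra011900 (3294 bases) at 19.0 RPKM. Only 1 member, Bra001015, had a highest wild-type value over 1.5 times its lowest, at a ratio of 1.6.

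This variation had a common direction. Wild-type library 4 was the highest of the 3 for 55.2% of the members, for 50.5% of the 491 genes under 10% of wild type and for 37.0% of the remaining genes. The median log2 ratio of library 4 over library 1 was 0.10 in members, 0.06 in the 491 and 0.007 in the remaining genes. The ratio also moved with length in every set. In members below 500 bases the median was 0.19, and library 4 was above library 1 in 43 of 50. In members of 500 to 1000 bases it was 0.15 (54 of 67), at 1000 to 2000 bases 0.05 (45 of 69) and from 2000 bases on -0.05 (6 of 24). The remaining genes had medians of 0.08, 0.04, -0.007 and -0.06 in the same classes. Members thus lay above the remaining genes of like length by 0.01 to 0.11 on the log2 scale. The 491 genes under 10% of wild type had medians of 0.14, 0.07, 0.03 and -0.03. They also lay above the remaining genes in each class, and from 2000 bases on above the members. Each library stands alone in this ratio, so it compares 2 libraries, and no test was made.

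**Figure D5:**
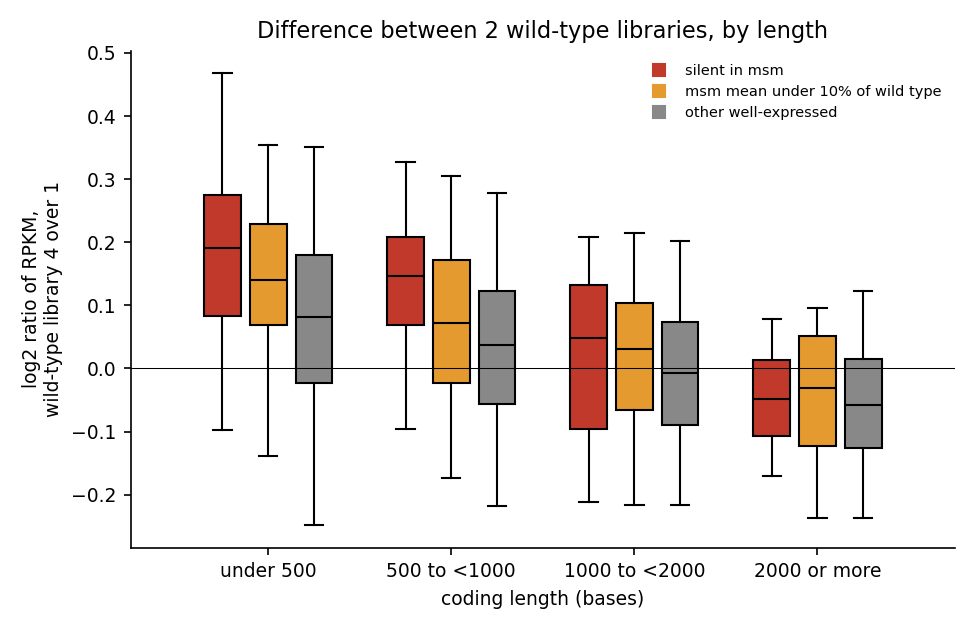
Log2 ratio of RPKM in wild-type library 4 over library 1 (y axis) by coding length (x axis) for the 210 members, the 491 genes under 10% of wild type and the 14231 remaining well-expressed genes. Boxes show the median and quartiles, and whiskers leave out the lowest and the highest 5%. The medians fall with length in all 3 sets, from 0.19 to -0.05 in members and from 0.08 to -0.06 in the remaining genes.

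The same rule was applied to 2 libraries of each group, and the genes it chose were then read in the library of each group that had been left out. Over the 9 ways to do this, 226 to 267 genes were chosen, 203 to 209 of them members. In the wild-type library left out, each of the chosen genes had at least 1 RPKM, with a lowest value of 6.83 RPKM over all 9 choices. A level of 1 RPKM asks little of genes chosen at a mean of at least 10 RPKM. At least 10 RPKM in that library was reached by 218 to 255 of the chosen genes, so not by all. In the msm library left out, 204 to 211 of the chosen genes lay below 0.1 RPKM, which is 78.5% to 90.6% of them, and 153 to 174 had no read. A chosen gene below 0.1 RPKM there meets the msm limit in every msm library. For a given wild-type library left out, that count was thus the same whichever msm library was left out. Only the number of chosen genes moved the share. The highest value of a chosen gene in an msm library left out was 0.506 RPKM, and the highest number of reads of any chosen gene there was 17. The shares were lowest when msm library 3 was the one left out, at 78.5% to 79.0%. The 9 choices share libraries and are not independent of each other.

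Some members carried identifiers with consecutive numbers. There were 5 such pairs, which hold 10 members. Bra028698 and Bra028699 had 34.3 ± 2.07 and 228.04 ± 12.2 RPKM in wild type (SD, n = 3 each), with coding lengths of 1086 and 1092 bases. Bra034679 and Bra034680 had 153.5 ± 11.1 and 62.8 ± 2.33 RPKM (SD, n = 3 each), with 1659 and 1662 bases. In both pairs the lengths were nearly equal and the levels differed beyond the SD. The other 3 pairs were Bra005516 with Bra005517, Bra027883 with Bra027884, and Bra040503 with Bra040504, and none of these 6 genes had an msm read. Among the 146 well-expressed genes whose number lies next to that of a member, 6.85% were themselves members, beside 1.41% of all well-expressed genes, and 8.22% belonged to the 491 genes under 10% of wild type, beside 3.29%. Whether neighbouring numbers mean neighbouring genes or related copies was not determined here. Only uniquely assigned reads were counted, so values of near-identical copies are uncertain.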

How the data were processed

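The authors deposited 1 table per library with read counts, coding length, coverage and RPKM per gene. Per the file headers, the counts are uniquely assigned reads, and they summed to the total in each header. RPKM values deposited by the authors could be rebuilt from count, length and total (largest relative deviation 6.44e-15). All lengths are multiples of 3, so they are coding lengths. Coverage is the deposited percentage of the length that was read, and 14 values passed 100. In 3804 of 3807 entries with 1 read, it corresponded to 125 bases. The submitters' processing notes name DESeq. For the aligner, build, annotation and strand, nothing is given in the sources used here.

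Libraries were grouped by title. The background comparison used edgeR 4.0.16 (R 4.3.3) with TMM scaling, the default filter and the robust quasi-likelihood test, and it was tested on simulated data. DESeq2 1.42.0 and limma 3.58.1 on log2(RPKM + 1) were alternatives. Folds use TMM scaling, with 3 counts per msm library as the floor for unread genes, and their 95% intervals are exact Poisson. Intervals and floors cover counting error only. Libraries may be technical repeats, so p-values measure only the spread between them.

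Genes were named by rule: the 12 members with the highest wild-type mean, the 6 with most msm reads, the 3 most and 3 least variable, the shortest, the longest, and 4 genes on each side of both limits. Genes with low coverage or consecutive numbers were named after their values were seen. The members and lists were chosen with earlier results of these data known. Marker lists of the tapetum, pollen coat, pollen, floral organs and green tissue were written by gene name, and 0 members could be matched to them.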

Additional observations from a re-analysis of the deposited data

How the results depend on the processing

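All 210 members stayed called lower in msm under each of 12 other fits, among them DESeq2 and limma, and none of the named members changed direction. Both results follow from the choice of the members, so they are no check on the set. The background counts, 3641 lower and 1351 higher genes, stayed within 1.5 times under these fits, apart from scaling by total counts, with which 2030 genes were higher. With 1 library left out they were 3695 to 3838 and 1329 to 1424. The paired fit, with the replicate block on the 4 libraries that share the numbers 1 and 2, called 3655 lower and 1308 higher genes, against 3665 and 1326 in the same libraries without the block, a fit added after the data were seen. Deviations of same-numbered libraries correlated at -0.0473 and 0.0368, and those of differently numbered libraries at -0.0754 to 0.0925. The labels do not say whether a number pairs libraries, and 2 correlations cannot settle it.

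The extent of the set depends on its limits by construction. With TMM-scaled RPKM there were 227 members. Their median wild-type level was 24.2 RPKM and their share of wild-type reads 1.01%, beside 22.2 RPKM and 0.918% in the set of 210. With a wild-type minimum of 5 RPKM there were 303 members, at 14.5 RPKM and 1.002%. A minimum of 20 RPKM left 114 members, at 42.7 RPKM and 0.755%, 61 of them without an msm read. An msm limit of 0.2 RPKM gave 317 members, at 27.0 RPKM and 1.76%, and a limit of 0.05 RPKM gave 159, at 19.6 RPKM and 0.505%. With no msm read allowed there were 128 members, at 19.5 RPKM and 0.295%. Among genes in which 3 reads lie below 0.1 RPKM there were 74, at 19.7 RPKM and 0.531%, 23 of them without an msm read. With 1 library left out, 204 to 266 genes met the rule, at 21.5 to 25.8 RPKM and 0.911% to 1.46%, with 124 to 186 unread in msm. The largest share, 1.46%, came without msm library 3, 1.59 times that of the full set.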
